A study of Mus musculus with 6 samples.

Results

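tRNA-Gln and tRNA-Pro are the transfer RNAs that carry glutamine and proline to the ribosome in the cytoplasm. Their reads were taken as all rows on references named Gln or Pro in the tRNA reference set, with the mitochondrial tRNAs left out. This gave 13 of 190 references: 5 with the anticodon CTG and 3 with TTG for glutamine, and 1 with AGG, 1 with CGG and 3 with TGG for proline. Of these, 12 had at least 1 position with 30 or more reads in all 6 libraries, since positions with fewer than 30 reads are not listed in the deposited tables. The exception was Gln-TTG-2, which was listed only in KO replicate 1 and reached 31 reads there.

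The study sequenced small RNA from total brain of wild-type (WT) mice and of TRMT1L knockout (KO) mice, with 3 libraries of each genotype that the series describes as biological triplicates. Strain, age, sex, the knockout allele and any pooling of animals are not given in the labels. The RNA was depleted of ribosomal RNA and kept in a window of small sizes before the libraries were made. The tables hold tRNA references only, so neither brain markers nor the Trmt1l transcript could be used to check the labels, and p-values measure the spread between these 3 and 3 libraries.

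In the genetic code, tRNA-Gln with the anticodon CTG reads the codon CAG and that with TTG reads CAA, while the anticodons AGG, CGG and TGG of tRNA-Pro together read the CCN codons of proline. The first anticodon base, the wobble base, sits at canonical position 34, and an adenosine there is converted to inosine in mature tRNA-Pro with the anticodon AGG. Methyl groups on the pairing face of a base, such as 1-methylguanosine at positions 9 and 37 of tRNA-Pro or 1-methyladenosine at position 58, make reverse transcriptase stop or misread, and so leave read starts, mismatches or gaps. TRMT1L is a paralogue of TRMT1, which methylates guanosine 26 of tRNAs. Both families carry a uridine (T in the references) and not a guanosine at canonical position 26.

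The leading reference of each anticodon is shown because the reads of a family can be told apart by anticodon only where these sequences differ. The anticodon is in capitals, positions are counted from 1 at the 5′ end of the reference, and the sequences are those of the deposited tables, so a base with under 30 reads everywhere is missing.
Gln-CTG-2: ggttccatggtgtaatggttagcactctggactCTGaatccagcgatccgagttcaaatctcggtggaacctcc
Gln-TTG-3: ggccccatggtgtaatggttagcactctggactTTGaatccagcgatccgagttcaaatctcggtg
Pro-TGG-2: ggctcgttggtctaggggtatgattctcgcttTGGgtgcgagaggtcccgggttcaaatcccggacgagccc
Pro-CGG-1: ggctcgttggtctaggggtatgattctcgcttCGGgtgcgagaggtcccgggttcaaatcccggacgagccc
Pro-AGG-1, positions 1 to 32: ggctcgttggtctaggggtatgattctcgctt
The glutamine anticodon lies at positions 34 to 36 and the proline anticodon at 33 to 35. Against Gln-CTG-2, Gln-TTG-3 differed by T3C, T4C and C34T over 66 listed positions, and Gln-TTG-1 by T4C and C34T. Within the CTG copies, Gln-CTG-1 differed by T47C and Gln-CTG-3 by A68G, while Gln-CTG-4 and Gln-CTG-5 showed no difference over the 46 and 45 positions they had listed. Pro-CGG-1 differed from Pro-TGG-2 by T33C alone over 72 positions. Pro-AGG-1 showed no difference from Pro-TGG-2 over 70 positions, but its positions 33 and 34 were not listed in any library. Reads that do not cross these bases fit several references, so values of copies and of anticodons outside these bases are not independent of each other.

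The libraries held between 6151209 and 6295061 base calls on all tRNA references in the WT and between 7981301 and 8797395 in the KO, so each KO library was the deeper. The 13 references took 5.64%, 4.71% and 4.51% of the base calls in WT replicates 1, 2 and 3 and 6.77%, 5.71% and 5.92% in KO replicates 1, 2 and 3. This order of libraries is kept in every list of 6 values. No tRNA-Gln or tRNA-Pro reference reached 7900 reads, where the depth limit of the tables sets in. KO replicate 1 stood apart from the other 5 libraries in several values below. Counts of libraries of 1 group did not agree within sampling noise over the 12 references, at 3.08 to 25.3 chi-square units per degree of freedom, a measure that covers counting error only and served to look for a library deposited more than once.

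Reads on tRNA-Gln with the anticodon CTG were concentrated around the anticodon loop. Coverage of Gln-CTG-2 at position 1 was 30, 57 and 86 reads in the WT and 344, 97 and 118 in the KO. It rose at positions 15 and 16 in the D loop, to 862, 767 and 727 reads at position 16 in the WT and 1936, 1195 and 1341 in the KO. The highest coverage lay at position 39 in all 6 libraries, just 3′ of the anticodon. Coverage then fell to 1871, 1566 and 1466 reads in the WT and 2539, 2434 and 2598 in the KO at position 47, and to 157, 91 and 128 against 152, 159 and 204 reads at position 57 in the T loop. The 5′ end of the tRNA was thus little covered in any library, and KO replicate 1 held the most reads over it. Coverage at position 1 as a percentage of the highest was 0.972%, 2.08% and 3.63% in the WT and 7.27%, 2.36% and 2.67% in the KO, a difference of 1.87 percentage points that an exact two-sided permutation test gave p = 0.4. Without KO replicate 1 the difference was 0.288 points, and without WT replicate 1 it was 1.24.

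**Figure D1:**
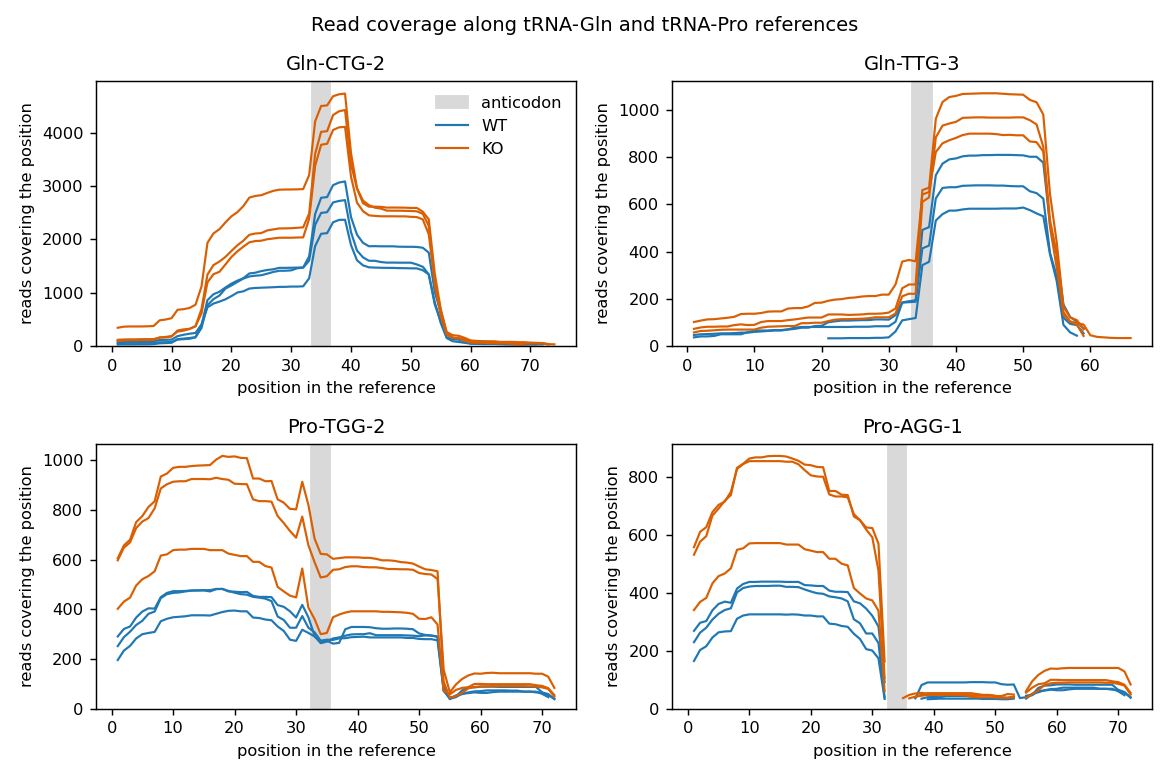
Reads covering each position (y axis, linear) against the position in the reference (x axis) for 4 references, 1 line per library, WT blue and KO orange, with the anticodon shaded. In Gln-CTG-2 all 6 lines peak at position 39, in Gln-TTG-3 they rise at the anticodon, and in Pro-AGG-1 the lines break at the anticodon, where fewer than 30 reads were found.

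The ends of the reads fell at few places. On Gln-CTG-2, reads starting at position 34, the wobble base, made up 25.3% ± 0.701 of the highest coverage in the WT and 23.6% ± 2.12 in the KO (SD, n = 3 each), and reads starting at position 16 made up 14.8% ± 1.12 and 15.4% ± 1.70. Reads ending at position 53 made up 22.3% ± 2.70 and 22.7% ± 0.879. For reads ending at position 39 the shares were 21.3% ± 1.04 and 23.3% ± 0.481, and here the groups did not overlap, a difference that was not tested. The tables count starts and ends by position, so which start belongs to which end is unknown. Gln-CTG-1 can share with Gln-CTG-2 only reads that do not cross its base C47, and its coverage lay mostly 5′ of that base: it was 1250, 1184 and 915 reads at position 39 in the WT and 2346, 1719 and 1900 in the KO. By position 41 it was 236, 233 and 149 in the WT and 547, 273 and 411 in the KO, and at position 47 it was listed only in KO replicates 1 and 3, with 121 and 50 reads. Starts at position 34, by contrast, barely added to it, since its coverage went from 1247 to 1251 reads between positions 33 and 34 in WT replicate 1 and from 1871 to 1895 in KO replicate 3.

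On tRNA-Gln with the anticodon TTG the reads lay 3′ of the anticodon. Gln-TTG-3 was covered by 188, 119 and 194 reads at position 34 in the WT and 359, 221 and 261 in the KO. At position 45 it was covered by 809, 582 and 681 reads in the WT and 900, 968 and 1071 in the KO. Most of this rise came from reads that start after position 34 and so cannot be assigned to either anticodon. At position 35, 304, 224 and 220 reads started on Gln-TTG-3 in the WT and 283, 390 and 400 in the KO, and nearly the same 305, 225 and 223 and 289, 396 and 410 started on Gln-CTG-2. The starts that do cross the wobble base differed between the anticodons. At position 34 itself 793, 670 and 609 reads started on Gln-CTG-2 in the WT and 1005, 992 and 1122 in the KO, while 4, 5 and 5 and 2, 0 and 7 did on Gln-TTG-3. One further base 5′, at position 33, Gln-CTG-2 had 208, 130 and 150 starts in the WT and 261, 347 and 258 in the KO against at most 16 on Gln-TTG-3. At position 32 the order was the other way, with 81, 47 and 54 starts in the WT and 98, 73 and 86 in the KO on Gln-TTG-3 and at most 12 on Gln-CTG-2. Every library showed these 3 orders.

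At position 34, where the references differ, Gln-TTG-3 held 7.06%, 4.98% and 9.37% of the summed coverage of Gln-CTG-2 and Gln-TTG-3 in the WT and 7.85%, 6.14% and 6.75% in the KO. The groups overlapped, with 7.14% ± 2.20 against 6.91% ± 0.869 (n = 3 each, exact permutation p = 0.9). The difference of -0.223 points had no settled sign: it was 0.893 without WT replicate 3 and 0.163 without KO replicate 2, but -1.3 without WT replicate 2, -0.692 without KO replicate 1 and -0.142 without KO replicate 3. In all, 7 single values were compared in this way over the text, 3 against 3 libraries cannot give a p below 0.1, and the Benjamini-Hochberg adjusted values lay between 0.56 and 0.9.

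tRNA-Pro was read mostly from its 5′ end. On Pro-TGG-2, reads starting at position 1 made up 54.1% ± 5.60 of the highest coverage in the WT and 62.1% ± 2.42 in the KO (SD, n = 3 each). Coverage at position 15 was 476, 376 and 477 reads in the WT and 979, 643 and 924 in the KO. Reads ending at position 31, just before the anticodon, made up 37.9% ± 2.24 and 41.0% ± 2.18 of the highest coverage, and reads starting at position 32 made up 30.1% ± 1.84 and 25.7% ± 5.94. Reads ending at position 53, at the start of the T loop, made up 47.9% ± 6.77 and 42.5% ± 2.35. Coverage fell there from 275, 290 and 290 reads at position 53 in the WT to 71, 73 and 88 at position 54, and from 553, 339 and 522 to 109, 73 and 157 in the KO. What was left at position 55 was 16.7%, 13.8% and 13.4% of the coverage at 53 in the WT and 7.96%, 17.1% and 12.6% in the KO, with overlapping groups (exact permutation p = 0.5). KO replicate 1 was the lowest, and without it the difference of -2.09 points became 0.217; it was -1.05 without WT replicate 1 and -4.35 without KO replicate 2. On Gln-CTG-2, coverage at position 57 was 8.96%, 6.77% and 9.52% of that at position 53 in the WT and 6.74%, 7.59% and 8.59% in the KO, again with overlapping groups (exact permutation p = 0.4). The difference of -0.778 points was -0.505, -1.6 and -0.225 without WT replicate 1, 2 or 3, and -0.327 and -1.25 without KO replicate 1 or 3. Gln-CTG-2 thus lost most of its coverage between positions 53 and 57 and Pro-TGG-2 between 53 and 55, as reads ended there. At position 57, which is canonical position 58, Pro-TGG-2 had more reads than at 55 in each library. These were 74, 61 and 59 in the WT and 64, 84 and 120 in the KO. The cause of the loss was not tested.

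The 3 proline anticodons shared their 5′ part and differed from the anticodon on. Pro-AGG-1 was covered by 227, 174 and 284 reads at position 31 in the WT and 570, 339 and 477 in the KO. One base on, at position 32, it was covered by 40, 34 and 92 reads in the WT and 163, 61 and 106 in the KO, and its positions 33 and 34 were not listed in any library, so each had fewer than 30 reads. Pro-CGG-1 kept 77, 85 and 114 reads at its wobble base in the WT and 157, 86 and 151 in the KO, and 1 base further it was listed only in KO replicate 1, with 48 reads. Pro-TGG-2 kept 308, 291 and 294 reads at that base in the WT and 685, 361 and 590 in the KO, and it alone among the 3 leading references ran through the anticodon in every library. At position 62, 3′ of the T loop, Pro-AGG-1 had 84, 67 and 73 reads in the WT and 91, 99 and 141 in the KO, close to the 89, 67 and 74 and 91, 99 and 145 reads of Pro-TGG-2.

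The wobble base separates CGG from TGG. Pro-CGG-1 held 20%, 22.6% and 27.9% of their summed coverage there in the WT and 18.6%, 19.2% and 20.4% in the KO. All but 1 of the KO values were below the WT values, the groups overlapped, and the means were 23.5% ± 4.05 and 19.4% ± 0.880 (n = 3 each, exact permutation p = 0.2). Without WT replicate 3, the highest, the difference of -4.09 points became -1.9. The middle of Pro-TGG-2 relative to its 5′ part, taken as coverage at position 45 over that at position 15, was 60.3%, 85.6% and 62.1% in the WT and 61.0%, 60.7% and 60.8% in the KO. WT replicate 2 stood apart here, and without it the difference of -8.51 points became -0.367 (-13 without WT replicate 1). The part 3′ of the T loop, position 62 over position 15, was 18.7%, 17.8% and 15.5% in the WT and 9.30%, 15.4% and 15.7% in the KO (exact permutation p = 0.2). KO replicate 1 was the lowest, and without it the difference of -3.88 points became -1.78.

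The amount of each tRNA was taken as its highest coverage. Gln-CTG-2 reached 3088, 2737 and 2369 reads in the WT and 4735, 4111 and 4427 in the KO (2731 ± 360 and 4424 ± 312, SD, n = 3 each), more than any other member. Gln-TTG-3 reached 810, 587 and 681 reads in the WT and 900, 969 and 1071 in the KO, and Gln-CTG-1 reached 1251, 1184 and 915 and 2346, 1719 and 1901. Most reads at the peak of Gln-TTG-3 started 3′ of its wobble base and also fit Gln-CTG-2, so this peak is not the amount of TTG alone. Raw coverage was higher in the KO for all 12 references, by 1.37 to 1.93 times, and the KO libraries were also the deeper ones.

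For proline, Pro-AGG-1 reached 425, 326 and 439 reads in the WT and 873, 572 and 855 in the KO (396.7 ± 61.6 and 766.7 ± 169, SD, n = 3 each). Pro-CGG-1 reached 487, 400 and 533 reads in the WT and 965, 640 and 979 in the KO. Pro-TGG-2 reached 482, 395 and 482 reads in the WT and 1017, 643 and 929 in the KO. Pro-AGG-1 was below Pro-CGG-1 in all 6 libraries, and the highest coverage of each came from the 5′ part they share.

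After scaling between libraries (TMM), none of the 12 references passed the threshold of edgeR's quasi-likelihood test, an adjusted p under 0.05 over all 145 references tested, of which 22.8% passed. None reached an unadjusted p under 0.05 either, whereas 44 of the 145 did, and DESeq2 called none of the 12. The log2 fold change of KO over WT was above 0 for 11 of the 12, with a median of 0.28 against -0.0041 over the 145, but with upper-quartile scaling the 2 medians were -0.21 and -0.49. The median of the 12 was 0.154 without KO replicate 1, 0.155 without WT replicate 3 and 0.46 with no filter on low values, where that over all references was 0.14. In bulk tissue, fewer cells holding a tRNA and less of it per cell cannot be told apart.

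The largest change among the leading references was that of Pro-AGG-1, with a log2 fold change of 0.46 (SE 0.22, adjusted p = 0.202 by edgeR). Pro-TGG-2 had 0.44 (SE 0.22, adjusted p = 0.205 by edgeR) and Pro-CGG-1 0.37 (SE 0.22, adjusted p = 0.296 by edgeR). Scaled for library size (CPM), Pro-TGG-2 had values of 2515, 2099 and 2569 in the WT and 3849, 2547 and 3322 in the KO. KO replicate 2 thus lay within the WT range, as it did for Pro-AGG-1 and Pro-CGG-1. Without KO replicate 1 the fold change of Pro-TGG-2 was 0.26 (adjusted p = 0.535 by edgeR) and that of Pro-AGG-1 0.31 (adjusted p = 0.482 by edgeR); that of Pro-CGG-1 was 0.24 without it and 0.23 without KO replicate 3.

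Gln-CTG-2 had a log2 fold change of 0.21 (SE 0.13, adjusted p = 0.298 by edgeR), which was 0.13 without KO replicate 1, 0.13 without KO replicate 2 and 0.12 without WT replicate 3. It was also 0.12 without references at the depth limit and 0.32 with no filter on low values. Gln-TTG-3 had 0.013 (SE 0.19, adjusted p = 0.959 by edgeR), a value that rests mostly on reads that also fit Gln-CTG-2. Its scaled values were 4226, 3119 and 3629 in the WT and 3406, 3838 and 3830 in the KO, so the groups overlapped throughout. Gln-CTG-1 was the 1 reference whose scaled values did not overlap, with 6527, 6291 and 4877 in the WT and 8879, 6809 and 6798 in the KO, at a fold change of 0.35 (SE 0.19, adjusted p = 0.263 by edgeR). Of all 145 references, 33.8% had groups that did not overlap. The signs of these fold changes depended on the scaling: with upper-quartile scaling all 5 leading references were below 0 in the KO.

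**Figure D2:**
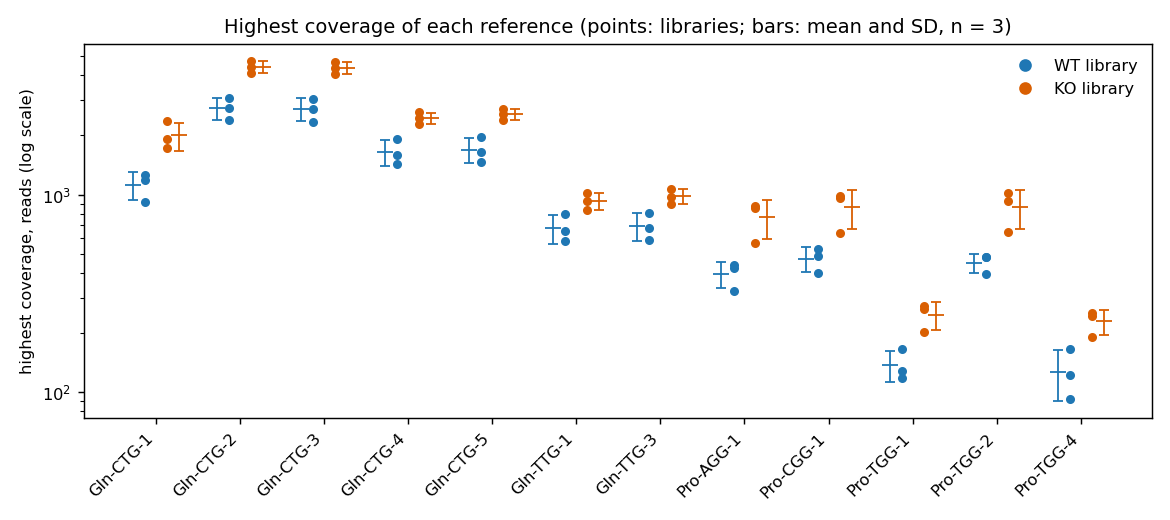
Highest coverage in reads (y axis, log scale) of the 12 references listed in all libraries (x axis), not scaled between libraries; points are libraries (WT blue, KO orange) and bars the mean and SD of 3. KO points lie above WT points for all 12 references, the KO libraries being the deeper, and Gln-CTG-2 and Gln-CTG-3 are the highest.

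The 5′ part of a tRNA was set against its 3′ part by the log2 ratio of the highest coverage before the anticodon to that after it, within each library. The leading references of the families lay on opposite sides. Before taking the log, Gln-CTG-2 had ratios of 0.545, 0.585 and 0.537 in the WT and 0.677, 0.580 and 0.561 in the KO, and Gln-TTG-3 had 0.230, 0.194 and 0.279 and 0.406, 0.229 and 0.244. Pro-TGG-2 had ratios of 1.66, 1.2 and 1.59 in the WT and 1.67, 1.64 and 1.62 in the KO. Pro-AGG-1 had 5.06, 3.54 and 6.01 in the WT and 9.59, 5.72 and 6.06 in the KO, and Pro-CGG-1 had 5.80, 4.6 and 7.30 and 10.6, 6.40 and 6.94. In each library, then, these glutamine references had ratios below 1 and these proline references had ratios above 1. KO replicate 1 had the highest ratio of all 6 for each of these 5 references. Gln-CTG-1 lay near 1, with 0.998, 1 and 0.999 in the WT and 0.987, 0.998 and 0.984 in the KO.

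Between genotypes the ratios of all 11 references that could be compared overlapped, whereas 23.7% of the 93 references tested over all tRNAs had groups that did not. For these 11, limma called none at an adjusted p under 0.05. Of all 93 references tested, 5.38% were called, which became 0 with the replicate number as a block. The labels do not say whether libraries of the same number belong together. None of the 11 reached an unadjusted p under 0.05, against 18 of the 93. The difference in log2 ratio, KO minus WT, was above 0 for 10 of the 11, with a median of 0.16 against 0.078 over the 93. That order of the medians rested on single libraries: without KO replicate 1 they were 0.040 against 0.047, and without WT replicate 3 0.11 against 0.13. The member median was 0.27 without KO replicate 3 and 0.415 with the mean coverage of each part in place of the highest. The difference was 0.54 (SE 0.29, adjusted p = 0.456 by limma) for Pro-AGG-1, 0.29 (SE 0.27, adjusted p = 0.673 by limma) for Gln-TTG-3 and 0.12 (SE 0.099, adjusted p = 0.640 by limma) for Gln-CTG-2. Without KO replicate 1 these 3 were 0.31, 0.028 and 0.040, and without WT replicate 2 the first 2 were 0.33 and 0.16. Gln-TTG-3 had 0.44 without KO replicate 2, and with the mean coverage it had 0.56 and Gln-CTG-2 0.24. With the midpoint of the reference as the boundary Gln-CTG-2 had 0.0059. Taken by replicate number, the 3 differences of a reference had 1 sign for 5 of the 11 references (45.5%), against 38.7% of the 93. The sign was positive for Pro-AGG-1, Pro-TGG-2, Gln-CTG-4 and Gln-CTG-5 and negative for Gln-CTG-1. For Pro-AGG-1 the differences were 0.92, 0.69 and 0.012, and its adjusted p was 0.364 with the replicate block (limma).

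**Figure D3:**
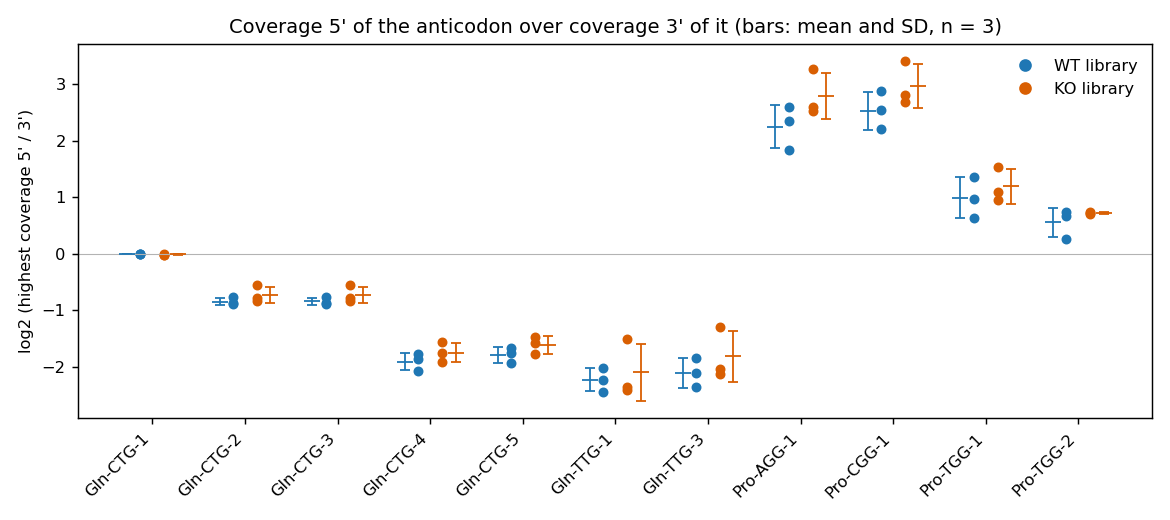
Log2 ratio of the highest coverage 5′ of the anticodon to that 3′ of it (y axis) for the 11 references with at least 30 reads in both parts (x axis); points are libraries (WT blue, KO orange) and bars the mean and SD of 3. The tRNA-Pro references sit above 0 and the tRNA-Gln references at or below 0, and WT and KO points overlap in each.

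Read starts were tested at each position as a share of the coverage there, the measure in which a stop of reverse transcriptase shows. Of 146 member sites with at least 100 reads in each library and at least 1% starts, the limma-moderated quasi-binomial test called none, against 0.275% of the 1092 sites over all tRNAs. At an unadjusted p under 0.05 there were 9 of the 146 and 85 of the 1092, and limma on the arcsine square root called none of the 146. The count of 9 moved with single libraries: it was 20 of 152 without WT replicate 3, 2 of 146 without WT replicate 1, 0 of 139 without WT replicate 2, 1 of 144 without KO replicate 1 and 5 of 151 without KO replicate 2. It was also 2 of 76 at a rate minimum of 5% and 0 of 57 at 500 reads. The groups did not overlap at 16 of the 146, a share near the 13.6% over all sites. These 16 repeat some positions on copies that share reads, such as position 2 of Pro-AGG-1, Pro-CGG-1 and Pro-TGG-2. At 14 of the 16 the KO was lower, a direction that was not counted over all sites. The largest of these differences was at position 2 of Pro-AGG-1, where 13.6% of reads started in the WT and 8.02% in the KO (adjusted p = 0.630 by the limma-moderated test). At position 37 of Gln-TTG-3 31.6% and 26.3% did (adjusted p = 0.708 by the limma-moderated test), at position 2 of Pro-TGG-2 12.7% and 7.50% (adjusted p = 0.614 by the limma-moderated test), and at position 12 of Gln-CTG-2 8.60% and 3.84% did (adjusted p = 0.619 by the limma-moderated test).

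Among positions with at least 100 reads in each library, position 9 was the most often misread base of tRNA-Pro. At G9 of Pro-TGG-2, 6.94%, 9.12% and 6.44% of called bases were mismatched in the WT and 18.5%, 5.48% and 10.4% in the KO (7.50% ± 1.42 and 11.5% ± 6.58, SD, n = 3 each), which were 32, 33 and 30 reads in the WT and 175, 34 and 94 in the KO. KO replicate 1 was the highest, with a Wilson 95% interval of 16.2% to 21.1%, and KO replicate 2 the lowest of all 6. The change was mostly G9C, which made up 80.9% to 100% of the mismatches per library. The difference of 3.96 percentage points did not pass the limma-moderated test (adjusted p = 0.650), and it was 0.44 without KO replicate 1 and 6.96 without KO replicate 2.

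The other proline references share these reads. Pro-AGG-1 had 7.43%, 10.2% and 6.96% in the WT and 20%, 6.14% and 10.2% in the KO, and Pro-CGG-1 had 7.48%, 9.22% and 6.67% and 19.3%, 5.81% and 9.84%. Among 32 references with a G at position 9 and at least 100 reads in each library, 4 proline references ranked 3 to 6 by the mean of the 6 libraries, between 9.48% and 10.2%. The 28 references outside the 2 families, mitochondrial tRNAs among them, had a median of 0.0104%. Their highest value was 26.4%, that of mito-Tyr-GTA. Some of the 28 are copies with the same value, such as Gly-GCC-2 and Gly-GCC-3. G9 of Gln-CTG-2 was covered by only 56 to 498 reads and was mismatched in 1.79%, 2.74% and 0% of them in the WT and 4.62%, 2.91% and 0.613% in the KO. At a coverage minimum of 50 reads this site could be fitted, with a difference of 1.2 points (adjusted p = 0.565 by the limma-moderated test). The glutamine values rest on few reads.

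The mismatch test had 8 member sites, all in tRNA-Pro, and the limma-moderated quasi-binomial test called none of them, as it called 0% of the 143 sites over all tRNAs. At an unadjusted p under 0.05 there were 0 of the 8 and 7 of the 143, and limma on the arcsine square root called none of the 8. The groups overlapped at all 8, against 3.5% of the 143 where they did not. The KO mean was higher at 7 of the 8, a direction that was not counted over the 143. Those 7 were positions 6 and 9 on proline references that share reads, so they are not separate results.

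At canonical position 26, the position methylated by TRMT1 where it is a guanosine, these tRNAs were read almost without error. Of 1427, 1358 and 1099 called bases of Gln-CTG-2 in the WT, 0.140%, 0% and 0.091% were mismatched. In the KO, 1.08%, 0% and 0.0461% of 2872, 2004 and 2169 called bases were. Position 25 of Pro-TGG-2, which is canonical position 26, had no mismatch in any library, where the depth allowed shares of up to 0.328% to 0.836%. The 1 library above the rest was KO replicate 1, in which Gln-CTG-1 had T26A in 71 of 2273 reads. In that library Gln-CTG-1 also had C27T in 71 of 2275 reads, C44T in 78 of 177 and G45A in 78 of 160, while no other library showed a mismatch at the 3 latter positions where it was listed. These 4 bases were singled out after their values were seen.

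The wobble base is the base by which reads are assigned to CTG or TTG and to CGG or TGG, so a misreading of the 1 as the other would move the read to the other reference and is not seen here. No mismatch was found at position 34 of Gln-CTG-2 or Gln-TTG-3 in any library, which for Gln-CTG-2 allows a share of up to 0.0712% to 0.160% and for Gln-TTG-3 of up to 0.836% to 2.52%. The same held for position 33 of Pro-CGG-1 and Pro-TGG-2. The wobble adenosine of Pro-AGG-1, the site of inosine, was not listed in any library, so its reading as G could not be measured.

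At canonical position 37, next to the anticodon, the families differed. Adenosine 37 of Gln-CTG-2 was mismatched in at most 0.0861% of bases in any library. Guanosine 37 of Pro-TGG-2, at position 36 of the reference and the known site of 1-methylguanosine, was mismatched in 4, 4 and 3 of 237, 233 and 248 called bases in the WT and 8, 3 and 0 of 538, 310 and 490 in the KO. These were 1.54% ± 0.285 and 0.818% ± 0.755 (SD, n = 3 each), a difference of -0.72 points (adjusted p = 0.737 by the limma-moderated test) that was -0.311 without KO replicate 3.

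This guanosine more often had no base call at all. In the WT 40, 29 and 35 of the reads over it carried none, which were 14.4%, 11.1% and 12.4%, and in the KO 65, 58 and 69 did, which were 10.8%, 15.8% and 12.3%. The groups overlapped at 12.6% ± 1.70 and 13% ± 2.55 (SD, n = 3 each, adjusted p = 0.988 by the limma-moderated test). Of 4037 positions with at least 100 reads in each library over all tRNAs, 3592 had a call in every read of all libraries, 13 lacked a call in over 5% of reads, and 4 lacked it as often as this site or more, the site itself included. The neighbouring positions 35 and 37 of Pro-TGG-2 had a call in every read of all 6 libraries, and no deletion was listed at the site. Pro-CGG-1 was listed there in KO replicates 1 and 2 only, with 22.2% and 26.7% uncalled over just 54 and 30 reads. The uncalled share was examined after the tables had been seen, and of 4 member sites tested for it none was called, as 0% of the 59 over all tRNAs were (7 of the 59 and 0 of the 4 at an unadjusted p under 0.05).

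At canonical position 58, the site of 1-methyladenosine, fewer than 100 reads were left in some libraries of both families, so the site entered only the alternative with a minimum of 50 reads. Gln-CTG-2 had 5.23%, 4.55% and 0% mismatched bases in the WT and 0.685%, 0% and 2.05% in the KO, over 88 to 195 called bases, all of them A57T. Pro-TGG-2 had 0, 6 and 8 mismatched reads of 73, 61 and 59 in the WT and 0 of 64, 84 and 120 in the KO. WT replicate 1 of Pro-TGG-2 and WT replicate 3 of Gln-CTG-2 were at 0, so the groups overlapped in both of these references. Gln-CTG-3, which shares most reads of Gln-CTG-2, had 3.17%, 1.59% and 2.04% in the WT and 0.775%, 0% and 0% in the KO, and here the groups did not overlap.

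With a minimum of 50 reads, 24 member sites were fitted and the limma-moderated test called none of them, as it called 0 of the 212 over all tRNAs. At an unadjusted p under 0.05 there were 3 of the 24 and 14 of the 212. These 3 were position 57 of Pro-AGG-1, Pro-CGG-1 and Pro-TGG-2, which share their reads. For Pro-TGG-2 the means were 7.80% in the WT and 0% in the KO (adjusted p = 0.474 by the limma-moderated test), and for Gln-CTG-2 they were 3.26% and 0.912% (adjusted p = 0.520 by the limma-moderated test). The groups did not overlap at 3 of the 24 sites, position 57 of Gln-CTG-3, Gln-CTG-4 and Gln-TTG-1, again copies that share reads, against 4.72% of the 212.

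Gaps and extra bases passed the coverage and rate minimums at 2 places, position 6 of tRNA-Pro and position 55 of tRNA-Gln. At position 6 of tRNA-Pro, in the acceptor stem, a deletion starting at the guanosine was listed in 3.11%, 5% and 5.63% of reads of Pro-TGG-2 in the WT and 6.71%, 5.18% and 4.65% in the KO (4.58% ± 1.31 and 5.51% ± 1.07, SD, n = 3 each, adjusted p = 0.991 by the limma-moderated test). The difference of 0.935 points was 0.337 without KO replicate 1, 0.20 without WT replicate 1 and 1.46 without WT replicate 3. In KO replicate 1, 8 further reads lost this guanosine in a CG deletion starting at position 5, which these shares leave out. An insertion, most often of C, followed this guanosine in 9.42%, 4.26% and 4.21% of reads in the WT and 6.77%, 3.18% and 3.13% in the KO (adjusted p = 0.808 by the limma-moderated test). Replicate 1 of each genotype was the highest. The same base was mismatched in 4.32%, 0.345% and 2.64% of called bases in the WT and 3.59%, 3.36% and 4.40% in the KO.

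In tRNA-Gln a deletion starting at the cytidine at position 55, in the T loop, was listed in 3.64%, 1.22% and 1.15% of reads of Gln-CTG-2 in the WT and 3.13%, 1.24% and 1.03% in the KO. In KO replicate 3, 5 further reads lost this cytidine in a TC deletion starting at position 54, which these shares leave out. Replicate 1 was again the highest of each genotype, and the means of 2.00% ± 1.42 and 1.80% ± 1.16 (SD, n = 3 each) did not differ beyond their spread (adjusted p = 0.991 by the limma-moderated test). Of 9 deletion sites and 4 insertion sites tested in the 2 families the limma-moderated test called none, as it called 0% of the 60 and 0% of the 35 over all tRNAs. At an unadjusted p under 0.05 there were 0 of the 9, 0 of the 4, 8 of the 60 and 3 of the 35. The groups overlapped at all of these 13 sites, while they did not at 13.3% of the deletion sites and 5.71% of the insertion sites over all tRNAs. One insertion stood out in a single library and was singled out after its values were seen: TT after position 52 of Gln-CTG-2, in 87 of 1487 reads of WT replicate 2, or 5.85%, while any insertion there made up at most 0.0397% of reads in the other 5 libraries. On Gln-CTG-3, which shares most of these reads, it made up 5.94% in WT replicate 2 and 0.498% in WT replicate 1.

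**Figure D4:**
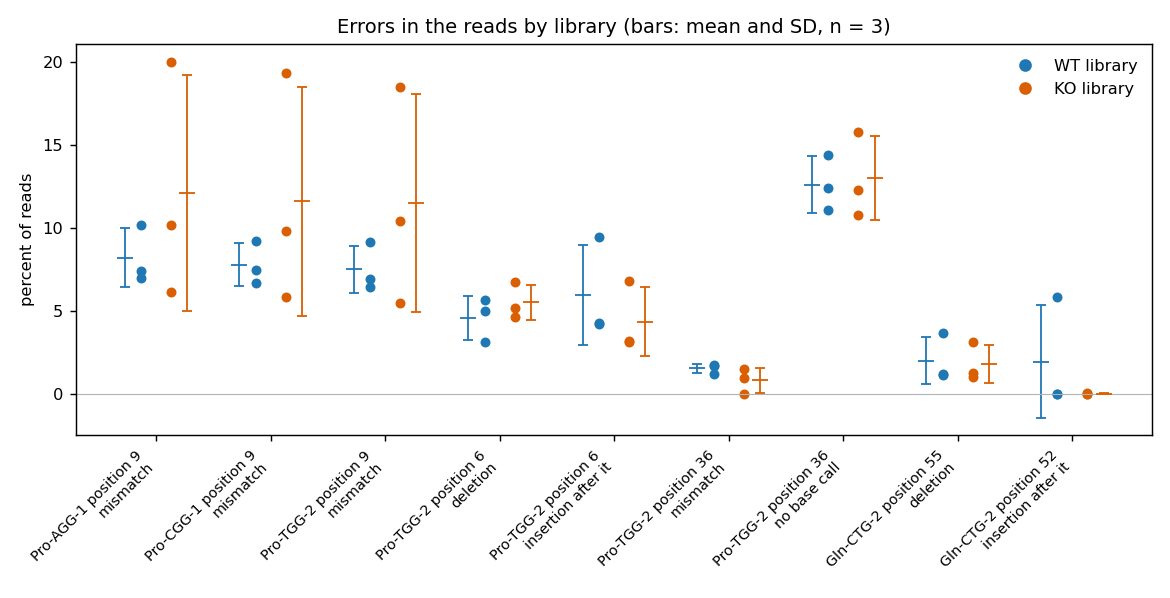
Percent of reads (y axis; of called bases for mismatches) with a mismatch, deletion, insertion or no base call at 9 sites (x axis); points are libraries (WT blue, KO orange) and bars the mean and SD of 3. KO replicate 1 is the highest point at position 9 of the proline references, between 18.5% and 20%, and the WT and KO points overlap at each site.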

How the data were processed

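Small RNA of WT and TRMT1L KO mouse brain was sequenced in 3 libraries each, with groups and replicate numbers from the titles. The deposited tables hold, per the file headers, raw counts per position of each tRNA reference: coverage, base calls, reverse-transcription stops, deletions and insertions. They also give mean and median base quality scores, per the file headers, with a median of 38. GATK 3.5 is named in the submitters' processing notes; aligner, pileup tool and genome build are not given in the sources used here. Positions under 30 reads are not listed, and coverage reached 8032.

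A stop is listed 1 position after the read start (all 527 checks), and a deletion 1 position before the deleted base (all 21540), so both were moved. A deletion of several bases was counted at its first base only. Ends were computed from coverage and starts. Canonical numbers came from the anticodon and the conserved loops. Uncalled bases are coverage less the 4 base calls.

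Sites with at least 100 reads in each library and a pooled rate of at least 1% were tested by a quasi-binomial model with dispersion moderated by limma 3.58.1 (R 4.3.3), abundance by edgeR 4.0.16 with TMM and filterByExpr, DESeq2 1.42.0 being an alternative, and log2 ratios by limma, all two-sided with Benjamini-Hochberg adjustment over all tRNAs. The functions were tested on simulated data. Wilson 95% intervals, and the share that 3 reads make, cover counting error only. Copies were compared for identical counts, and 0 of 66 pairs matched throughout.

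Named were the leading reference per anticodon, canonical positions 9, 26, 34, 37 and 58, and the 5 sites per event type with the highest rates. The members and lists were chosen with earlier results of these data known. Alternatives changed filters, tests, scaling, coverage summary and boundary, added a replicate block and left out each library. Deviations of same-numbered libraries, numbered in the labels' titles, correlated at 0.27, 0.341 and 0.20 for the ratio and at 0.0404 to 0.0959 for abundance. Differently numbered libraries were not compared in this way, and the labels state no pairing.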

Additional observations from a re-analysis of the deposited data

Results flagged for a closer look

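The share of reads with no base call, a quantity that no column of the tables gives and that lies outside the mismatch, stop, deletion and insertion counts, averaged 12.8% over the 6 libraries at position 36 of Pro-TGG-2 (canonical position 37). It lay between 10.8% and 15.8% in each library of either genotype, against 0% at the positions on both sides. The tables do not say whether these reads carried a gap or an unread base there. At position 6 of Pro-TGG-2 the uncalled share, 5.59% of all reads, lay near that of the listed deletions starting at that base, 5.24%.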

How the results depend on the processing

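The count of tRNA-Gln and tRNA-Pro references or sites past the threshold was 0 for every measure (mismatch, stop, deletion, insertion, uncalled, abundance, ratio) under every alternative that gave a value, including each library left out; at a coverage minimum of 500 reads no member site was left for mismatches, insertions and uncalled bases. With the replicate block it was also 0 for each, with smallest adjusted p values of 0.541 for mismatches (limma-moderated), 0.132 for abundance (edgeR) and 0.364 for the ratio (limma), and the block changed no other call of a member.

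Signs were less stable. With upper-quartile scaling the log2 fold changes became -0.28 for Gln-CTG-2, -0.486 for Gln-TTG-3, -0.037 for Pro-AGG-1, -0.124 for Pro-CGG-1 and -0.0535 for Pro-TGG-2, and with median coverage Pro-AGG-1 had -0.0178. Gln-TTG-3 had -0.021 with DESeq2 and -0.076 without references at the depth limit. Leaving out each library moved Gln-TTG-3 between -0.112 and 0.13, the deletion at position 55 of Gln-CTG-2 between -0.868 and 0.617 points, the insertion at position 6 of Pro-TGG-2 between -2.81 and 0.127 points (the latter without WT replicate 1), and the uncalled share at its position 36 between -1.06 and 1.43 points. The cause was not tested.

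Over all tRNAs, abundance calls went from 33 to 71 with upper-quartile scaling and to 20 without references at the depth limit. Ratio calls went from 5 to 0 with the block, the midpoint or 100 reads per part, and between 0 and 4 without 1 library. Stop calls went from 3 to 0 at a 5% rate, without sites at the depth limit, or without any 1 WT library. Deletion calls went from 0 to 1 at 500 reads or a 5% rate, and to 2 without WT replicate 2; insertion calls went from 0 to 3 without WT replicate 2, and uncalled sites from 0 to 3 with the block or without WT replicate 1 and to 1 without WT replicate 2. With a minimum of 50 reads, 3 of 24 member mismatch sites had an unadjusted p under 0.05, against 0 of 8 at 100 reads. Low coverage of the 5′ end of tRNA-Gln and of the T loop of both families limited positions 9 and 58.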
